A study of Mus musculus with 6 samples.

Results

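The wild-type baseline consists of the 2 RNA libraries labelled as wild-type mESC, out of 6 RNA libraries in the series, and it was chosen by those sample labels alone. Both libraries carry no deletion. The methods of the study describe the wild-type cells as G4 mESCs, a mouse embryonic stem cell line of hybrid 129/Sv × C57BL/6 F1 background. Per the labels, the cells were kept in Knockout DMEM with the cytokine LIF on CD1 feeder cells, and polyadenylated RNA was taken from directly lysed cultures. The methods also name fetal calf serum in the medium. The sources used here mention no step that removes the feeders. The other 4 libraries, which carry a deletion, were not compared here. A single cell line was measured, and the methods call the replicates biological, but neither they nor the labels say that these libraries came from separate cultures, so the SDs below describe the spread between these libraries, which may be technical. No test was made, because a single genotype with 2 libraries offers no comparison between groups.

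Embryonic stem cells derive from the inner cell mass of the blastocyst and can give rise to all embryonic lineages. A small network of transcription factors centred on Pou5f1 (Oct4), Sox2 and Nanog keeps them in this state, and LIF, signalling through Jak and Stat3, sustains the naive form of it in culture. Many lineage-specifying genes carry the Polycomb mark H3K27me3 in these cells and are transcribed weakly or not at all. Feeder cells are usually growth-arrested embryonic fibroblasts, which make collagens and other matrix proteins, so an unsorted culture is a mixture of stem cell and fibroblast RNA.

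The libraries held 28964706 and 25385717 counts in genes, and 3 counts, used as the detection floor, correspond to 0.104 and 0.118 counts per 1000000 (CPM). This floor covers counting error only. Of 55385 listed genes, 28610 had a count in at least 1 library and 26775 were at 0 in both. To compare genes of different length, counts were divided by the exon length of the gene and scaled so that all genes of a library sum to the same total (transcripts per 1000000, TPM). A gene was called expressed at 1 TPM or more in both libraries, which 15262 genes reached, among them 12688 of 21897 protein-coding genes (57.9%). Another 8826 protein-coding genes (40.3%) were under 1 TPM in both libraries, and 383 fell on either side. The 37 mitochondrial genes were listed at 0 in both libraries, so no statement on mitochondrial RNA can be made.

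The promoters of 5 genes that the results turn on are shown first: the 3 stem cell markers, Hoxd13 as the highest of the Hox genes, and Alb as a liver gene without a single count. Each is 300 bases from RefSeq (GRCm38.p6), from 250 bases before to 50 bases after the start, read 5′ to 3′ on the strand of the gene with CG dinucleotides in capitals.
Pou5f1, chr17:35505782-35506081 (+): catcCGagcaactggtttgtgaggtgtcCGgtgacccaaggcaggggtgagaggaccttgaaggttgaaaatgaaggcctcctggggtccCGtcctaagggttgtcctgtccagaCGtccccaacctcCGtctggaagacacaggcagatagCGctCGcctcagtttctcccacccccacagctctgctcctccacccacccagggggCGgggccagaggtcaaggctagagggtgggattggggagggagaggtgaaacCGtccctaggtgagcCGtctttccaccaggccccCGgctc
Nanog, chr6:122707239-122707538 (+): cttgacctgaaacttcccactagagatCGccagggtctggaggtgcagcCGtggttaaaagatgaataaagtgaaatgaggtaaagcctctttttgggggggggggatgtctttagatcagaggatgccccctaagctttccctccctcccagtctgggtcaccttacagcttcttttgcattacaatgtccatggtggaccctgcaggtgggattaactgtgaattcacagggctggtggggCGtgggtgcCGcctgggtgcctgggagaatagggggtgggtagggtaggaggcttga
Sox2, chr3:34649745-34650044 (+): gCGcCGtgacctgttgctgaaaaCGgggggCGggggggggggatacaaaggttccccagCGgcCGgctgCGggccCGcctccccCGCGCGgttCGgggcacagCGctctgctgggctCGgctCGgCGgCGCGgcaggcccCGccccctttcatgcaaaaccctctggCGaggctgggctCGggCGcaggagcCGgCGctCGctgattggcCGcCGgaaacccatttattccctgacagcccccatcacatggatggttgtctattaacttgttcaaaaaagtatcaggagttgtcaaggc
Hoxd13, chr2:74667975-74668274 (+): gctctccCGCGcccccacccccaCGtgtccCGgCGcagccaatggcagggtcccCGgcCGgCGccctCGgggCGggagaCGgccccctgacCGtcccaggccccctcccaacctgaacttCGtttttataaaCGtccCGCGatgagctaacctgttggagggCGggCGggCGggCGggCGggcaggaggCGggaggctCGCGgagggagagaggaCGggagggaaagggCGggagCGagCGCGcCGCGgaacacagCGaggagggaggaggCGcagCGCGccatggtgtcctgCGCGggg
Alb, chr5:90460620-90460919 (+): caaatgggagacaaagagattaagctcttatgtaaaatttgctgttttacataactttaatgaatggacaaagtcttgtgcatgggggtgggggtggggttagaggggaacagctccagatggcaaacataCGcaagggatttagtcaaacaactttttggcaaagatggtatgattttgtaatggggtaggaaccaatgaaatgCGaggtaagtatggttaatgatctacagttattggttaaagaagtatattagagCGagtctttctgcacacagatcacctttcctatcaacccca
The number of CG dinucleotides was 11 for Pou5f1, 4 for Nanog, 27 for Sox2, 37 for Hoxd13 and 3 for Alb, against a median of 7 (quartiles 3 and 20) over 32851 promoters in the same table. A CG-rich promoter was thus found both at Sox2, at a mean level of 293 TPM, and at Hoxd13, at 10.6 TPM. The RefSeq start of Sox2 lies 410 bases from the 5′ end of the gene in GENCODE, that of Hoxd13 85 bases and that of Alb 27 bases. On both strands, 3 motifs were searched: TATAAA (the TATA box), GGGCGG (the GC box) and ATGCAAA (part of the octamer that POU factors bind). They occur in 13.6%, 35.7% and 4.63% of the promoters in the table. Pou5f1 holds GGGCGG at position -45 relative to the start. Nanog holds ATGCAAA on the opposite strand at -75, and Sox2 holds it on its own strand at -99, beside GGGCGG at -223 and, on the opposite strand, at -111. Hoxd13 holds GGGCGG at 7 positions, of which the 5 between -91 and -75 overlap each other, and TATAAA on both strands at -124 and -126, which overlap as well. Alb holds none of these letters in this window. These matches describe the sequence and do not show that a factor binds there.

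The RNA carried the markers of embryonic stem cells at high levels and, beside them, a strong fibroblast signal. Pou5f1 (Ensembl ENSMUSG00000024406, GRCm38 chromosome 17, 35506018 to 35510772, plus strand), the POU factor at the centre of the network, had 28612 and 25323 counts, or 988 and 998 CPM. On the length-corrected scale it stood at 1564 TPM in both libraries and ranked 64 among protein-coding genes. Sox2 (chromosome 3, 34650405 to 34652461, plus strand), the partner of Pou5f1 on many enhancers, had 4888 and 4344 counts and stood at 292 and 293 TPM (rank 533). Nanog (chromosome 6, 122707489 to 122714633, plus strand), the homeobox factor that stabilizes self-renewal, had 2616 and 2351 counts and stood at 143 and 146 TPM (rank 1271). Col1a1 (chromosome 11, 94936224 to 94953042, plus strand), the main chain of type I collagen and the fibroblast marker, had 12477 and 10423 counts and stood at 234 and 220 TPM (rank 728). The order Pou5f1, Sox2, Col1a1, Nanog was the same in both libraries, and each step between neighbours exceeded the difference between libraries. In CPM, which does not correct for length, Col1a1 was at 431 and 411 and Sox2 at 169 and 171, so their order depends on the scale.

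**Figure D1:**
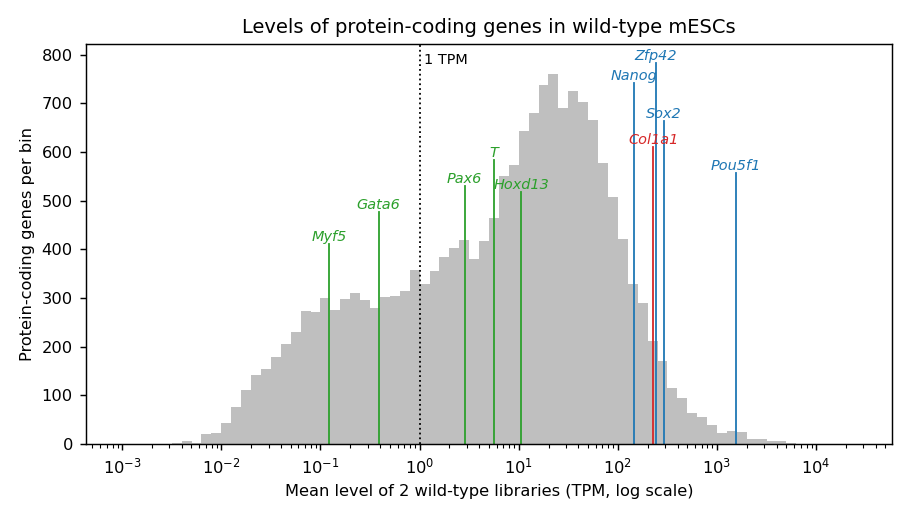
Histogram of the mean level of protein-coding genes with any count in the 2 wild-type libraries (x axis, TPM on a log scale; y axis, genes per bin), with stem cell genes in blue, Col1a1 in red and lineage genes in green. The dotted line marks the threshold of 1 TPM; Pou5f1, at 1564 TPM, lies far into the upper tail, and Gata6 and Myf5 lie below the line.

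The levels of protein-coding genes formed a broad peak above 10 TPM with a shoulder that extended to the detection floor, as the histogram of gene levels shows. A level of 10 to 100 TPM was the most frequent class, with 6691 genes (30.6%) that took 36.2% of all counts. At 100 to 1000 TPM lay 1790 genes (8.17%), and these took the largest share of counts, 43.6%. Only 111 genes reached 1000 TPM, yet they took 15.5% of the counts. At the other end, 5991 genes were under 0.1 TPM, including 4247 (19.4%) with no count in either library, and together they took 0.00930% of the counts. Among the 12688 expressed protein-coding genes the median level was 21.2 TPM, so Nanog, the lowest of the stem cell markers, was still several times above it.

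The most abundant RNAs encoded the translation and protein-folding machinery, and a stem cell gene stood among them. Eef1a1, the elongation factor that delivers tRNAs to the ribosome, was the highest gene, with 264899 and 243685 counts, 13059 and 13568 TPM. Hsp90ab1, a cytosolic chaperone, followed at 8283 and 8488 TPM. Rplp1, a protein of the ribosomal stalk, was at 8169 and 7705 TPM, and Rpl4, of the large subunit, at 5368 and 5608 TPM. Npm1, a nucleolar chaperone of ribosome assembly, was at 5337 and 5434 TPM, and Actb, cytoplasmic actin, at 4558 and 4610 TPM. The stem cell gene Dppa5a held rank 10 of all genes at 4436 and 4568 TPM, between Rpl8 at 4524 and 4578 TPM and Ptma, encoding prothymosin alpha, at 4416 and 4586 TPM. The libraries of these 3 genes overlap, so their order is not resolved. Eef2, the translocation factor of the ribosome, was at 3805 and 3674 TPM, Ftl1, the ferritin light chain, at 3571 and 3447 TPM, and Hsp90aa1, the stress-inducible chaperone, at 3380 and 3434 TPM. The other members of the 20 highest genes by TPM were ribosomal protein genes and Mir6236, annotated as a miRNA of 123 bases, at 3667 and 3736 TPM. In CPM, Mir6236 was at 127 and 130 and ranked 1818, so its high TPM rests on division by this short length. Whether its reads came from the miRNA was not tested. By CPM, which is not corrected for length, other genes entered the 20 highest, among them Ncl (nucleolin) at 3568 and 3666 CPM, Pkm (pyruvate kinase) at 3343 and 3447 CPM, Trim28, a corepressor of retroviral elements, at 2135 and 2168 CPM and the ubiquitin ligase Nedd4 at 2151 and 2144 CPM.

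No gene dominated the libraries. Eef1a1 took 0.937% of the counts and the 10 highest genes 4.41% and 4.54%, a mean of 4.48% ± 0.0952 (SD, n = 2). The 100 highest genes took 16.6% and 16.9% (16.8% ± 0.235, SD, n = 2), and 1000 genes took 50.3%. Put the other way, 986 genes held 50% of the counts and 5616 genes held 90%. The remaining share was spread over the long tail of weakly expressed genes.

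**Figure D2:**
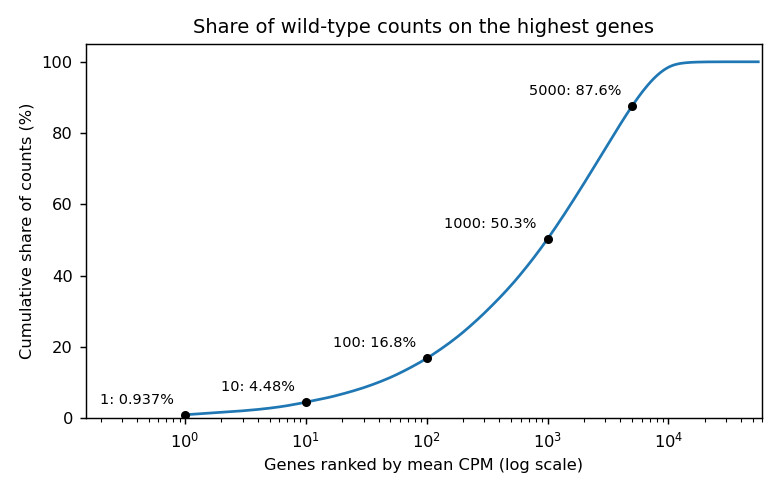
Cumulative share of the counts (y axis, percent, mean of the 2 wild-type libraries) against genes ranked by mean CPM (x axis, log scale). The labelled points give the share of the highest 1, 10, 100, 1000 and 5000 genes, from 0.937% to 87.6%.

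Growth genes were expressed almost throughout, against 57.9% of all protein-coding genes at 1 TPM or more in both libraries. Of 86 cytosolic ribosomal protein genes, 85 were at 1 TPM or more in both libraries, with a median of 1284 TPM, and together they took 6.54% of the counts (64545 and 66279 CPM). The exception was Rpl3l, the muscle form of Rpl3, with 15 and 9 counts. Next lowest were Rpl39l and Rpl36al, paralogs of Rpl39 and Rpl36a, at 18.6 and 18.7 TPM and at 19.1 and 18.9 TPM. Ribosomal protein genes have many processed pseudogenes of near-identical sequence, so their values are uncertain where reads matched several copies. All 11 translation factor genes were expressed (median 1644 TPM), although Eef1a2, the form of Eef1a1 typical of neurons and muscle, had only 58 and 47 counts and stood at 3.42 and 3.13 TPM. All 11 chaperone genes were expressed (median 1090 TPM), as were all 15 glycolysis genes (median 453 TPM), led by Gapdh at 2686 and 2742 TPM and with Hk1, a hexokinase, lowest at 15.6 and 14.6 TPM. The glycolysis genes summed to 13923 and 14236 CPM.

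Cell cycle genes were expressed without exception. All 17 reached 1 TPM in both libraries, against 57.9% of all protein-coding genes. Their median was 232 TPM and their sum 5503 and 5502 CPM. Cdk4, the kinase of G1, was at 563 and 578 TPM, the helicase subunit Mcm5 at 528 and 524 TPM and the replication clamp Pcna at 493 and 495 TPM. Ccne1, the G1/S cyclin, was at 470 and 485 TPM, and the D cyclins ranged from Ccnd1 at 246 and 239 TPM to Ccnd3 at 41.4 and 39.7 TPM and Ccnd2 at 28.4 and 28.6 TPM. Divided by its longest transcript, Ccnd3 would stand at a mean of 67.7 TPM. Among the 7 inhibitors of the cell cycle, all were expressed, with a median of 34.9 TPM. Cdkn1a (p21) was highest at 78.8 and 81.6 TPM, Cdkn2a (p16 and p19Arf) was at 38.2 and 35.8 TPM, and Cdkn2c (p18) was lowest with 24 and 29 counts. Of 63 replication-dependent histone genes, whose mRNAs end in a stem-loop and carry no poly(A) tail, 40 were under 1 TPM in both libraries, against 40.3% of all protein-coding genes, 16 had no count, and 14 reached 1 TPM in both. Many of these genes are near-identical copies, and reads matching several of them may not have been counted, so the part of the missing tail in these low values was not tested. H2bc4 was the highest, with 286 and 279 counts and a mean of 32.0 TPM.

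Every gene of the core and naive pluripotency lists was expressed, most of them far above the threshold. All 12 core pluripotency genes reached 100 TPM, with a median of 349 TPM, against the 57.9% of protein-coding genes that reached 1 TPM. After Pou5f1, L1td1, an RNA-binding protein derived from a LINE-1 element, was at 1090 and 1110 TPM, and Tdgf1 (Cripto), the Nodal co-receptor, at 897 and 909 TPM. Utf1, a chromatin-bound factor of undifferentiated cells, was at 794 and 719 TPM, and Lin28a, which blocks let-7 maturation, at 682 and 704 TPM. Dppa4, which binds DNA together with Dppa2, was at 397 and 382 TPM, and Dppa2 itself at 175 and 182 TPM. Trim71, a repressor of mRNAs and let-7 target, was the lowest of the list at 124 and 121 TPM, next to Nanog.

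The genes of the naive state covered a wider range. All 16 were expressed, with a median of 48.6 TPM and levels from 3.22 TPM for Prdm14 to 4502 TPM for Dppa5a. Zfp42 (Rex1), the classic marker of naive cells, was at 245 and 240 TPM. Fgf4, the growth factor that primes the cells for differentiation, was at 191 and 196 TPM, and Dppa3 (Stella), a protector of maternal methylation marks, at 127 and 133 TPM. The Krüppel-like factor Klf5 was at 79.0 and 74.0 TPM and the orphan receptor Esrrb at 73.7 and 75.1 TPM. At the lower end, Tet2, a 5-methylcytosine oxidase, was at 11.2 and 10.3 TPM, Tbx3, a T-box factor downstream of LIF, at 4.43 and 3.65 TPM, and Prdm14, which restrains Fgf signalling and DNA methylation, had 69 and 58 counts. The core and naive genes together summed to 6744 and 6816 CPM (6780 ± 50.8, SD, n = 2), or 0.678% of the counts. The receptor complex of LIF and its mediators were expressed too: Socs3, a feedback target of Stat3, was at 68.5 and 69.3 TPM, Stat3 at 37.4 and 38.4 TPM and the receptor Lifr at 14.2 and 14.4 TPM. All 6 genes of this pathway passed the threshold, against 57.9% of all protein-coding genes.

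Genes of the formative and primed states, which follow the naive state in the embryo, were mostly expressed as well. Of 14 genes, 13 reached 1 TPM in both libraries (92.9%, against 57.9% of all protein-coding genes), with a median of 50.8 TPM. The de novo methyltransferase Dnmt3b was highest at 888 and 875 TPM, followed by the Nodal inhibitor Lefty1 at 189 and 182 TPM, Nodal itself at 107 and 102 TPM and Dnmt3a at 99.2 ± 2.58 TPM (SD, n = 2). By contrast, Fgf5, the usual marker of the post-implantation epiblast, stood at 6.14 and 8.05 TPM and Fgf8 had 17 and 12 counts. Cer1, a secreted Nodal and Wnt antagonist, had no count in either library, which allows at most 3 counts (0.104 and 0.118 CPM). At the opposite end of the potency scale stood the 9 genes of the two-cell-like state, which marks rare cells resembling the cleavage embryo. All were under 1 TPM in both libraries, against 40.3% of all protein-coding genes. Zscan4d, of the telomere-associated Zscan4 cluster, had 4 and 7 counts, and Duxf3 (Dux), the factor that activates this state, had 1 and 0 counts. These genes belong to families of near-identical copies, and reads matching several copies may not have been counted. In bulk RNA, fewer cells of a type and less RNA per cell cannot be told apart, so a low level here may be that of all cells or of a few.

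Epithelial adhesion genes were high, and mesenchymal genes were present at mostly lower levels. All 8 epithelial adhesion genes were expressed, against 57.9% of all protein-coding genes, with a median of 244 TPM. Cdh1 (E-cadherin), which holds stem cell colonies together, was at 690 and 683 TPM, and Epcam, a second surface adhesion molecule, at 436 and 443 TPM. Cldn6 and Cldn4, tight junction claudins, were at 303 and 318 TPM and at 281 and 283 TPM. All 7 genes of the mesenchymal switch were expressed too, but their median was 9.46 TPM. Vim, the intermediate filament of mesenchymal cells, was at 330 and 329 TPM, whereas Cdh2 (N-cadherin) was at 13.4 and 12.9 TPM and the repressor Zeb2 at 1.52 and 1.78 TPM (a mean of 2.65 TPM with the longest transcript).

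**Figure D3:**
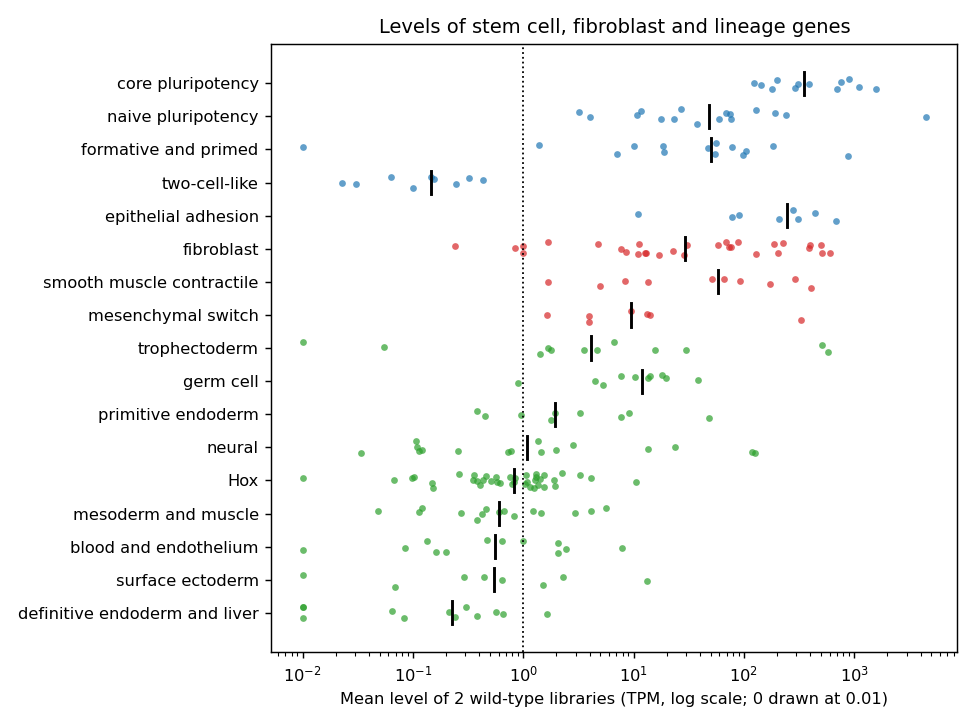
Mean level of each gene (points; x axis, TPM on a log scale, with genes without a count drawn at 0.01) in 17 gene lists, with the median of each list as a black bar and the threshold of 1 TPM as a dotted line. Stem cell and adhesion lists (blue) and fibroblast lists (red) lie mostly above the line, except the two-cell-like list, and 5 lineage lists (green) have their median below it.

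Fibroblast markers were expressed in both libraries. Of 30 fibroblast markers, 26 (86.7%) were at 1 TPM or more in both libraries, against 57.9% of all protein-coding genes. Of the others, 1 was under 1 TPM in both, 3 fell on either side and none was at 0. Their median was 29.4 TPM, and they summed to 6105 and 6005 CPM (6055 ± 70.7, SD, n = 2), or 0.606% of the counts. In CPM, which does not correct for length, this sum was close to that of the core and naive pluripotency genes. On the length-corrected scale the median of the fibroblast markers was well below that of those pluripotency genes, 137 TPM. Thbs1 (thrombospondin 1) was the highest at 610 and 597 TPM, with 30147 and 26121 counts. Fn1, the matrix glycoprotein fibronectin, was at 530 and 493 TPM. Ccn2 and Ccn1, secreted targets of the Yap coactivator, were at 393 and 398 TPM and at 392 and 394 TPM. Below them came Col1a1, Bgn (biglycan, 201 and 207 TPM) and the collagen cross-linking enzyme Lox (187 and 188 TPM). Not every fibroblast gene was high: Postn, encoding periostin, had 71 and 42 counts, the proteoglycan gene Dcn had 52 and 37, and Lum, encoding lumican, had 5 and 4. The second chain of type I collagen, Col1a2, was at 77.6 and 76.4 TPM, and Col3a1, of type III collagen, at 12.6 and 13.0 TPM. With the longest transcript, the means of Bgn and Col1a2 were 343 and 131 TPM.

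Contractile genes of smooth muscle and activated fibroblasts accompanied the matrix genes. All 10 were expressed, against 57.9% of all protein-coding genes, with a median of 58.8 TPM and a sum of 896 and 918 CPM. Acta2 (smooth muscle actin) was at 401 and 416 TPM, Myl9, a myosin light chain, at 285 and 291 TPM and Tpm2, a tropomyosin, at 167 and 175 TPM. Myh11, the heavy chain of mature smooth muscle, was the lowest at 1.68 and 1.70 TPM. The counts do not say which of these transcripts came from feeders and which from the stem cell colonies. No separation of them is described, and no feeder-only library was analysed here. The same holds for genes that both cell kinds use, such as the ribosomal and cell cycle genes above.

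Lineage genes ranged from no count to 580 TPM, with a median below the threshold. Over 9 lists with 133 genes, 67 (50.4%) were under 1 TPM in both libraries, against 40.3% of all protein-coding genes, and 59 were at or above it in both. The median was 0.906 TPM, against 3.22 TPM over all protein-coding genes. Of the 133 genes, 7 were without a count in both libraries, against 4247 of 21897 protein-coding genes (19.4%). By this measure the lineage genes were less often silent than protein-coding genes at large. No test was made of these shares, because the lists were selected by hand.

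Definitive endoderm and liver genes were the lowest of these lists. Of 12 genes, 11 (91.7%) were under 1 TPM in both libraries, against 40.3% of all protein-coding genes, and the median was 0.228 TPM. Alb (albumin), Ttr (transthyretin) and Hnf4a, the hepatocyte nuclear receptor, had no count in either library. Sox17, the endoderm factor, had 5 and 0 counts. Foxa1 and Foxa2, pioneer factors of endoderm, were at 0.739 and 0.584 TPM and at 0.674 and 0.469 TPM. The chemokine receptor Cxcr4, which other cell types also use, was alone above the threshold, at 1.77 and 1.54 TPM.

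In the mesoderm and muscle list, 10 of 15 genes (66.7%) were under 1 TPM, against 40.3% of all protein-coding genes. The median was 0.609 TPM. Of the 5 expressed genes, T (Brachyury), the primitive streak factor, had 112 and 87 counts (5.95 and 5.22 TPM), Eomes was at 4.17 and 4.04 TPM and Hand1 at 2.40 and 3.54 TPM, while Mixl1 and Tbx6 lay between 1.03 and 1.88 TPM. The myogenic factor Myf5 had 3 and 1 counts, and Mesp1 and Msgn1, of early and presomitic mesoderm, had 1 count each over both libraries. In the blood and endothelium list, 7 of 12 genes (58.3%) were under the threshold in both libraries, against 40.3% of all protein-coding genes. Tek, the angiopoietin receptor of endothelium, was the highest at 7.96 and 7.84 TPM. The leukocyte antigen gene Ptprc (CD45) had 23 and 15 counts, Hba-a1, an adult globin gene, had 0 and 1, and Hbb-bt had none.

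The neural list divided evenly, with 8 of 16 genes (50%) on each side of the threshold, against 40.3% of all protein-coding genes under it. The median of the list was 1.07 TPM. Its 2 highest members are not restricted to neurons: Tubb3, a beta-tubulin, was at 130 and 123 TPM, and Nes (nestin), an intermediate filament of progenitors, at 120 and 115 TPM. The bHLH factors Olig2 and Neurod1 followed at 26.1 and 21.6 TPM and at 14.1 and 12.8 TPM, a level above that of most lineage factors listed. Pax6, of forebrain and eye, was at 2.90 and 2.78 TPM and Sox1, of the neural plate, at 1.96 and 2.01 TPM. With the longest transcript in place of the exon union, the mean of Pax6 was 5.51 TPM and that of Sox1 1.46 TPM. Neurog1, a proneural factor, had 3 and 0 counts, and Pax7, of dorsal neural tube and muscle stem cells, had 1 and 2. Among 8 surface ectoderm genes, 5 (62.5%) were under 1 TPM, against 40.3% of all protein-coding genes. Grhl3, an epidermal barrier factor, stood apart at 13.2 and 13.0 TPM. Trp63 (p63), the regulator of stratified epithelium, had no count, and the keratin gene Krt15 had 2 and 0.

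The extraembryonic and germ cell lists had higher medians than the other lineage lists. Of 12 trophectoderm genes, 10 were at 1 TPM or more (83.3%, against 57.9% of all protein-coding genes). The sum of the list, however, rested on the simple-epithelium keratins Krt18 (567 and 580 TPM) and Krt8 (524 and 507 TPM). Tfap2c, which germ cells also use, was at 29.5 and 30.3 TPM, and Tead4 at 17.0 and 14.4 TPM. Lower in the list, Ascl2 was at 7.80 and 5.64 TPM, Krt7 at 4.62 and 4.69 TPM and Cdx2 at 1.52 and 1.84 TPM. The 2 members under the threshold were Elf5, with 3 and 2 counts, and the spongiotrophoblast gene Tpbpa, with none. In the primitive endoderm list, 6 of 9 genes were expressed (66.7%), near the 57.9% of all protein-coding genes. The median of the list was 1.93 TPM, below the 3.22 TPM of all protein-coding genes. Lrp2 (megalin), an endocytic receptor, was highest at 52.2 and 43.9 TPM, followed by the laminin chain gene Lama1 at 9.62 and 8.66 TPM. Gata4 was at 1.61 and 1.99 TPM, while Gata6, the factor that opposes Nanog in the inner cell mass, was at 0.472 and 0.299 TPM from 25 and 14 counts. Among 10 germ cell genes, 9 were expressed (90%, against 57.9% of all protein-coding genes), and the median of the list was 11.9 TPM. Ddx4 (Vasa), a helicase of germ granules, was at 39.4 and 37.6 TPM, and Mael and Hormad1, of the piRNA pathway and of meiotic chromosome axes, were at 18.5 and 21.1 TPM and at 18.2 and 17.8 TPM.

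Hox genes, which pattern the body axis and are textbook Polycomb targets, were detected at mostly low levels from all clusters. Of 39 genes, 20 (51.3%) were under 1 TPM in both libraries, against 40.3% of all protein-coding genes. Another 13 were at or above it in both and 6 fell on either side, and the median of the list was 0.832 TPM. Hoxd13, the last gene of the HoxD cluster, whose promoter is shown above, was the highest, with 202 and 199 counts and 10.6 ± 0.796 TPM (SD, n = 2). It was the only Hox gene with 100 counts in both libraries. Hoxb9, from another cluster, was at 3.15 and 3.40 TPM. Hoxd3, of the same cluster as Hoxd13, was listed at 0, but its annotation spans all of Hoxd4 on the same strand, so reads shared by both may not have been counted, and Hoxc12 and Hoxc11 had 1 and 3 counts over both libraries. All 39 genes together summed to 34.5 and 33.4 CPM, less than Nanog alone at 90.3 and 92.6 CPM. Antisense transcripts overlap Hox genes, and the strand setting of the counting is not given in the sources used here, so reads of the opposite strand may be included.

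The Polycomb machinery was expressed in full. All 12 PRC2 genes passed the threshold, against 57.9% of all protein-coding genes. Their median was 152 TPM and their sum 2696 and 2733 CPM. The histone-binding subunits Rbbp7 and Rbbp4 were highest at 528 and 528 TPM and at 249 and 255 TPM, and other chromatin complexes use them too. The core subunits Eed and Suz12 were at 164 and 161 TPM and at 154 and 152 TPM, and the methyltransferase Ezh2 was at 98.9 ± 2.22 TPM (SD, n = 2), against 11.2 and 12.1 TPM for its homologue Ezh1. The value of Ezh2 depends on the gene length used: with the longest transcript its mean was 174 TPM, and that of Suz12 was 127 TPM, which turns their order. Jarid2, which brings PRC2 to chromatin, was at 202 and 200 TPM and Epop, an elongin-binding accessory subunit, at 175 and 177 TPM. Phf19 and Phf1, Polycomb-like accessory subunits, were lowest besides Ezh1, at 10.6 ± 0.817 TPM (SD, n = 2) and at 8.07 and 6.57 TPM, while the third Polycomb-like gene, Mtf2, was at 152 TPM in both libraries.

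All 19 PRC1 genes were expressed as well, against 57.9% of all protein-coding genes. Their median was 28.8 TPM and their sum 1854 and 1793 CPM. Phc1, a polyhomeotic subunit, was at 433 and 409 TPM and Cbx7, the chromobox reader of H3K27me3, at 177 and 164 TPM. The ubiquitin ligase Rnf2 (Ring1B) was at 109 and 112 TPM, against 11.8 and 12.6 TPM for its homologue Ring1. Cbx8, another chromobox protein, was the lowest at 1.67 and 1.55 TPM. In the DNA methylation list all 8 genes were expressed. After Dnmt3b, the cofactor Dnmt3l was at 420 and 425 TPM and Uhrf1, which brings maintenance methylation to replicated DNA, at 394 and 389 TPM. Dnmt1 was at 185 and 176 TPM and Tet1 at 108 and 90.9 TPM, while Tet3 was lowest at 5.95 and 5.49 TPM.

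RNA other than that of protein-coding genes was a small fraction of these poly(A) libraries. Protein-coding genes took 98.47% and 98.50% of the counts, genes annotated as processed transcripts 0.415% and 0.403%, processed pseudogenes 0.381% and 0.393%, and lincRNA genes 0.372% and 0.342%. By CPM, the highest gene annotated otherwise was Cct6a, a chaperonin subunit gene listed in GENCODE M21 as a processed transcript, at 959 and 1011 CPM. By TPM Mir6236 was higher, through division by its 123 bases. The maternally expressed imprinted RNAs Rian and Meg3, from the same domain on chromosome 12, were at 608 and 587 CPM and at 495 and 404 CPM. Gas5 and Snhg1, which host small nucleolar RNAs, were at 387 and 371 CPM and at 219 and 216 CPM. The processed pseudogenes Gm15459 (465 and 476 CPM) and Gm8730 (328 and 326 CPM) are uncertain, since such copies share reads with their parent genes. By chromosome, chromosome 11 took the largest share of counts, 9.92%, chromosome X 3.25% and chromosome Y 0.0120%. Of the 6 genes of the X and Y list, 5 passed the threshold, against 57.9% of all protein-coding genes and 27.6% of all genes. The list was selected by hand and includes Xist, at 2.71 and 2.11 TPM, and Tsix, at 1.11 and 1.37 TPM. The Y-linked Eif2s3y was at 7.83 and 7.74 TPM and Kdm5d at 0.243 and 0.146 TPM.

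The libraries differed by little, yet by more than counting noise. The chi-square per degree of freedom was 2.34 over 15947 genes with at least 10 counts in both, where sampling noise alone gives about 1. Among 11227 genes with at least 100 counts in both, 6 differed by more than 1.5-fold and 0 by more than 2-fold, and the SD of the log2 ratio of replicate 2 to replicate 1 was 0.108. The spread narrowed with depth: at mean counts of 10 to 100 the SD of the log2 ratio was 0.474, at 100 to 1000 it was 0.141, and at 1000 to 10000 it was 0.0702. Above 10000 counts it stayed at 0.0701, although the median counting error there was 0.0161. These 428 genes include the rRNA gene CT010467.1, described below, which widens the SD. Their median absolute log2 ratio was lower than in the class before, 0.0359 against 0.0435. Values from a few counts, as for most lineage factors, are therefore known far less precisely than those of the stem cell genes.

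**Figure D4:**
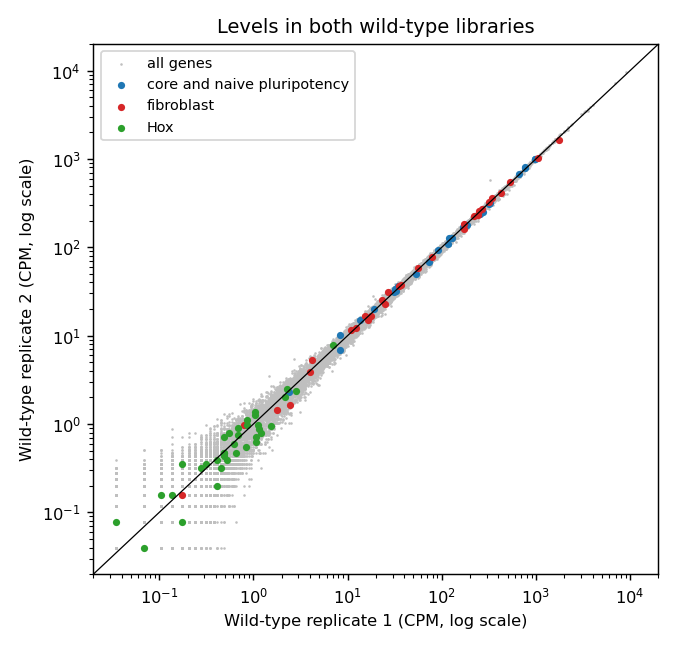
Level of each gene in replicate 2 (y axis) against replicate 1 (x axis), both in CPM on log scales, for genes with a count in both wild-type libraries, with the line of equal levels. Core and naive pluripotency genes (blue) and fibroblast genes (red) follow the line, and Hox genes (green) lie in the region of few counts where points scatter.

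The gene that differed most was CT010467.1, annotated as ribosomal RNA on chromosome 17, with 9380 counts in replicate 1 and 14675 in replicate 2, a log2 ratio of 0.84 with a counting error of 0.02. Another rRNA gene, n-R5-8s1, was also higher in replicate 2, with 534 and 716 counts (log2 ratio 0.61). Ribosomal RNA took 0.0347% and 0.0614% of the counts, a larger share in replicate 2. Among protein-coding genes the widest difference was that of Rbl2, a retinoblastoma family member, with 197 and 102 counts (log2 ratio -0.76, counting error 0.18). Of the 28 core and naive pluripotency genes, 27 had 100 counts in both libraries, and their log2 ratios ran from -0.27 to 0.28 with a median of 0.02. The fibroblast genes ran from -0.11 to 0.36 with a median of 0.02, so neither group moved as a whole between the libraries.

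Part of the difference between the libraries went with gene length. In the shortest of 5 equal groups of protein-coding genes, by longest annotated transcript, the median log2 ratio of replicate 2 to replicate 1 was 0.0226, and 37.9% of genes were lower in replicate 2. In the longest group the median was -0.0474, and 71.9% were lower. Spearman's rho of the ratio with length was -0.263 over 10840 genes, given as a description, since genes of the same libraries are not independent. Long matrix genes such as Fn1 (530 and 493 TPM) and Col1a1 (234 and 220 TPM) were lower in replicate 2, and the short Dppa5a was higher, but single genes also went the other way. The short Rplp1 and Utf1 were lower in replicate 2, with log2 ratios of -0.07 and -0.13, and the long Dnmt3a and Ncl were higher, with 0.07 and 0.04. The difference is small beside the range of levels between genes.

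**Figure D5:**
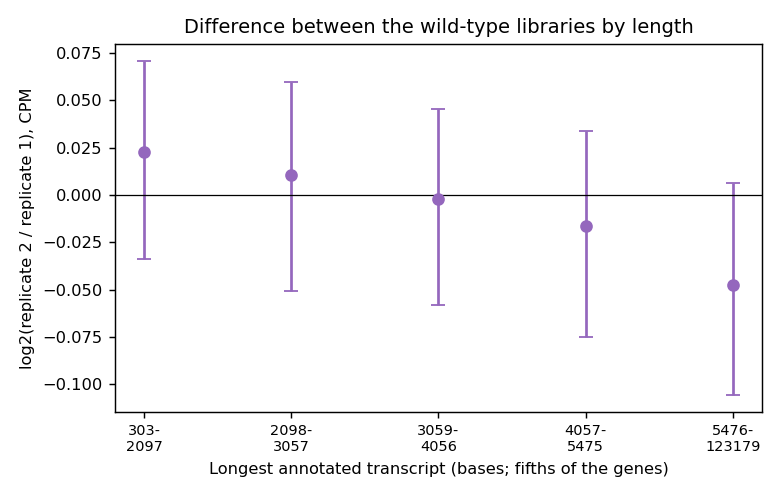
Median (points) and quartiles (bars) of the log2 ratio of replicate 2 to replicate 1 in CPM (y axis) for 5 groups of protein-coding genes with at least 100 counts in both wild-type libraries, ordered by longest annotated transcript in bases (x axis). The medians fall from 0.0226 in the shortest to -0.0474 in the longest group.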

How the data were processed

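RNA of wild-type mESCs was sequenced in 2 libraries made with a stranded poly(A) mRNA kit. The file that the authors deposited holds unnormalized counts for 55385 genes. The submitters' processing notes name Trimmomatic 0.39, STAR 2.6.1d, SAMtools 1.9, featureCounts 1.6.4, DESeq2 1.22.2 and mm10 (GRCm38). Annotation release, strand setting and treatment of reads matching several genes are not given in the sources used here. The methods state biological triplicates, and the labels give 2 libraries.

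CPM were computed from each library's total, and TPM from counts and the union of a gene's exons in GENCODE M21 (GRCm38), which held 55144 of the identifiers. Levels were described per library and as mean and SD, without a test, and the computation was tested on simulated data. The 4 deletion libraries were not used. The 29 gene lists (497 genes, all matched) and the members were chosen with earlier results of these data known. Named genes were the 4 markers, the 20 highest by CPM and by TPM, up to 6 highest and 3 lowest members of each list, the 10 highest genes that are not protein-coding, and the 10 with the largest ratio between libraries at 100 counts or more in both. Ezh2, Mtf2, Ring1, Cdx2, Sox17, Ccnd1, Bgn, Lox, Col1a2 and Col3a1 were added for their role after their values were seen. Some genes that the rule names are not reported here. A RefSeq promoter was found for 76.5% of protein-coding symbols, below the 80% required, so promoter composition over lists or level classes is void and not given. Alternatives were TMM factors (edgeR 4.0.16), DESeq2 1.42.0 size factors, totals of protein-coding genes, a filter of 10 counts in both libraries, the longest transcript, thresholds of 0.5 and 2 TPM, and each replicate left out. Python 3.11.15, pandas 2.3.3 and R 4.3.3 were used.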

Additional observations from a re-analysis of the deposited data

How the results depend on the processing

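With TMM factors or DESeq2 size factors, none of the 281 named genes moved by more than its spread between libraries. The count of expressed genes was 15263 and 15262 against 15262. With 2 libraries such factors are reciprocal (TMM 1.003 and 0.997), so a mean over both could hardly move. With protein-coding genes alone in the total, the share of the 100 highest genes was 17.0% against 16.8%, the fibroblast sum 6148 CPM against 6055 and the pluripotency sum 6884 CPM against 6780. These moves follow from the smaller total. Leaving out either replicate gave 15916 to 16213 expressed genes and 70 to 71 lineage genes under the threshold. Genes were then called on the remaining library alone, so both counts could only rise or stay the same. The share of the 100 highest genes was 16.6% to 16.9%. The fibroblast sum was 6005 to 6105 CPM and the pluripotency sum 6744 to 6816 CPM. Leaving out a replicate moved by over 1.5-fold named genes with few counts, such as Neurog1, Krt15 and Gsc. Thresholds of 0.5 and 2 TPM gave 17219 and 13308 expressed genes and left 46 and 91 of the 133 lineage genes below, against 67. The matching shares of all protein-coding genes are not given for the alternative settings. The comparison of lineage genes with the 40.3% of all protein-coding genes therefore stands for the main setting only. Dividing by the longest transcript gave 14714 expressed genes and 71 lineage genes below, and it moved 10 named genes by over 1.5-fold, among them Ptprc (2.34 times), Eno1 (1.95 times) and Pax6 (1.94 times), whose exon unions are much longer than any of their transcripts. Depth limits the lowest genes: at 3 counts or fewer a gene cannot be told from 0. No paired analysis was possible because the baseline holds a single genotype, so no test between groups exists in which a replicate number could serve as a block.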
